A study of Rattus norvegicus with 16 samples.

Results

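Genes that drive cells through DNA replication and division were followed across 4 tissues of a rat bone defect model. They were the rows of the deposited count table whose symbol equalled a name on a list of 40 genes. The table of 14476 genes held 38 of them, and all 38 were among the 12857 genes with enough counts to be tested. The list was divided by textbook role into 16 genes of S phase and 22 genes of mitosis. Bub1b and Cenpe, also on the list, were not analysed here.

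RNA-seq had been done on tissue of 4 Sprague-Dawley rats, each with a plated osteotomy on both sides. On one side the gap was left empty, and on the other it held a spacer of polymethyl methacrylate (PMMA) bone cement, the first stage of the Masquelet treatment of bone defects. At 4 weeks each rat gave 4 libraries. From the spacer side came the induced membrane that forms around the cement (IM) and the bone beside the spacer (PMMA bone). From the empty side came the tissue of the osteotomy gap, labelled a pre-fibrous non-union (PFNU), and the bone beside the empty defect (BNED). Every group thus held 4 libraries from the same 4 animals, and all 16 tissues, controls included, came from operated limbs. The comparisons below share libraries: each group enters 2 of the 4 pairwise comparisons, so their results are not independent.

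A cell that divides first copies its DNA in S phase and then separates the copies in mitosis. Origins of replication are licensed by loading the MCM helicase, the helicase is switched on at the start of S phase, and ribonucleotide reductase and thymidylate synthase supply the building blocks. E2F transcription factors raise the S-phase genes at the transition out of G1, and a later wave that uses the CHR promoter element and CCAAT boxes with the transcription factors B-Myb and FOXM1 raises the mitotic genes. In bone, much of the dividing population lies in the marrow, where red cell precursors and B cell precursors multiply, while repair tissue has dividing fibroblasts, endothelium and osteogenic cells of its own.

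The promoters of 4 members are printed because S-phase and mitotic genes are told apart throughout and their promoters differ in the letters they hold. RefSeq windows of rat build GRCr8, from 250 bases before to 50 after a gene's start, matched 31 of the 38 members by symbol, 13 of S phase and 18 of mitosis. Mcm4, Rrm2, Cdc6, Ccna2, Aurkb, Tpx2 and Racgap1 were not matched. Both strands were searched for the E2F-type letters TTGGCGC (with its variants TTCCCGC, then TTCGCGC and also TTGCCGC), for the CHR letters TTTGAA or else TTCGAA, and for the letters CCAAT; matches may overlap, as an E2F-type match and a CCAAT match of Mcm7 do. Only the 250 bases before the start are printed, 5′ to 3′ on the gene's strand, with matches in capitals (a match to the other strand reads as its reverse complement, such as ATTGG for CCAAT). Mcm7 and Cdk1 were taken for the most matches of their class (Mki67 tied with Cdk1), and Cdca7 and Top2a for the largest change of their class between the bone groups.
Mcm7 (chr12:22163179-22163428, minus strand): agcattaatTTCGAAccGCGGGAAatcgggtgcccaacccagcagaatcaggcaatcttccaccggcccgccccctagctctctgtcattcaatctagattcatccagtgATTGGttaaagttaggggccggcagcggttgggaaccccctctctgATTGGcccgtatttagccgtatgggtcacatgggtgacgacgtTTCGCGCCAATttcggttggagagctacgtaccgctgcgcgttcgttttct
Cdca7 (chr3:77730065-77730314, plus strand): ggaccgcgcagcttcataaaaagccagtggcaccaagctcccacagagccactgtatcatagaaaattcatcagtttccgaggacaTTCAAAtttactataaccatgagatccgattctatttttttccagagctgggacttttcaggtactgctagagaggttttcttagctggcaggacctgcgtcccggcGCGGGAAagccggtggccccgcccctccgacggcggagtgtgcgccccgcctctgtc
Cdk1 (chr20:19265043-19265292, plus strand): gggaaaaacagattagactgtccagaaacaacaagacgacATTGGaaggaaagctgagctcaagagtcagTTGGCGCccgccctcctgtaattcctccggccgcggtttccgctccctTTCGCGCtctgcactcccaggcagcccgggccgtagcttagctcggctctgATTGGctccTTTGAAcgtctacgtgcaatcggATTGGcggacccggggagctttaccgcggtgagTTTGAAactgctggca
Top2a (chr10:84473094-84473343, minus strand): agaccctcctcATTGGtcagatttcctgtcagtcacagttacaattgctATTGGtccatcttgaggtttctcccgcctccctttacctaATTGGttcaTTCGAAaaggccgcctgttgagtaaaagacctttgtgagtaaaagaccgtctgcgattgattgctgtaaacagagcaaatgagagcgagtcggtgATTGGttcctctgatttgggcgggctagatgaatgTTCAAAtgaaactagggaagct

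E2F-type letters were found in the windows of 11 of 13 S-phase members and 5 of 18 mitotic members, against 10.6% of 27457 genes with a window. A CHR match stood in 4 of 13 S-phase and 13 of 18 mitotic members (21.0% of all genes) and CCAAT in 8 of 13 and 16 of 18 (39.6%). Both a CHR match and CCAAT in a single window were found for 2 S-phase members and 13 mitotic members, against 8.57% of all genes. Top2a, which untangles chromosomes before they separate, held 2 CHR matches and 4 of CCAAT and no E2F-type match. Cdca7, a chromatin protein of S phase, held 1 E2F-type and 1 CHR match. These matches are a description of letters in the windows.

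Libraries held 40472228 to 76815879 counts. Levels are given as CPM, counts divided by the library size that TMM factors had scaled. Bone markers were present in all bone libraries: the 10 osteoblast and osteocyte genes had a mean log2 CPM of 7.51 to 9.46 there and 3.64 to 8.35 in defect tissue. Blood and marrow markers differed widely between libraries. The 19 erythroid genes analysed, of 25 listed, took 0.0424 to 0.160% of the counts in IM, 0.107 to 0.491% in PFNU, 0.480 to 8.53% in PMMA bone and 4.52 to 7.89% in BNED, and none was at 0 in any library. The 19 B cell genes, of 20 listed, took 0.00654 to 0.0148% in IM, 0.0165 to 0.0275% in PFNU, 0.0523 to 0.116% in PMMA bone and 0.217 to 0.350% in BNED. Of these B cell genes, 2 were at 0 counts in at least 1 IM library and 1 in at least 1 PFNU library. Skeletal muscle genes took 2.24 to 20.2% of the counts in IM and 6.23 to 15.3% in PFNU. One library stood apart from its group: the PMMA bone of rat 1 was at 8.53% erythroid counts, where the PMMA bone of rats 2 to 4 lay at 0.480 to 1.44%. The counts of called genes and the main values of both comparisons with PMMA bone are given with and without it.

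Cell cycle genes were highest in the bone beside the empty defect and lowest in the tissue of the defect. The mean log2 CPM of the 16 S-phase genes was 6.80, 6.32, 6.28 and 6.58 in BNED of rats 1 to 4, and 6.62, 4.70, 4.91 and 5.42 in PMMA bone. In defect tissue it was 4.02, 4.20, 4.12 and 4.33 in PFNU and 4.43, 3.92, 3.77 and 3.65 in IM. The order by group mean was BNED, PMMA bone, PFNU and IM, and the last pair overlapped. The mean log2 CPM of the 22 mitotic genes was 6.96, 6.43, 6.38 and 6.82 in BNED and 6.80, 4.62, 4.86 and 5.31 in PMMA bone. It was 3.47, 3.88, 3.89 and 3.93 in PFNU and 4.51, 3.99, 3.57 and 2.94 in IM. All PMMA bone libraries thus lay above all defect tissue libraries in both classes, and in both the PMMA bone of rat 1 lay among the BNED libraries. For each of the 38 members, every IM and PFNU library was below every BNED library. For 22 of 38 every IM and PFNU library was also below every PMMA bone library. The share of all genes that met these joint conditions was not computed. For single pairs, PFNU lay wholly below BNED for 21.0% of all genes and IM wholly below PMMA bone for 11.7%.

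**Figure D1:**
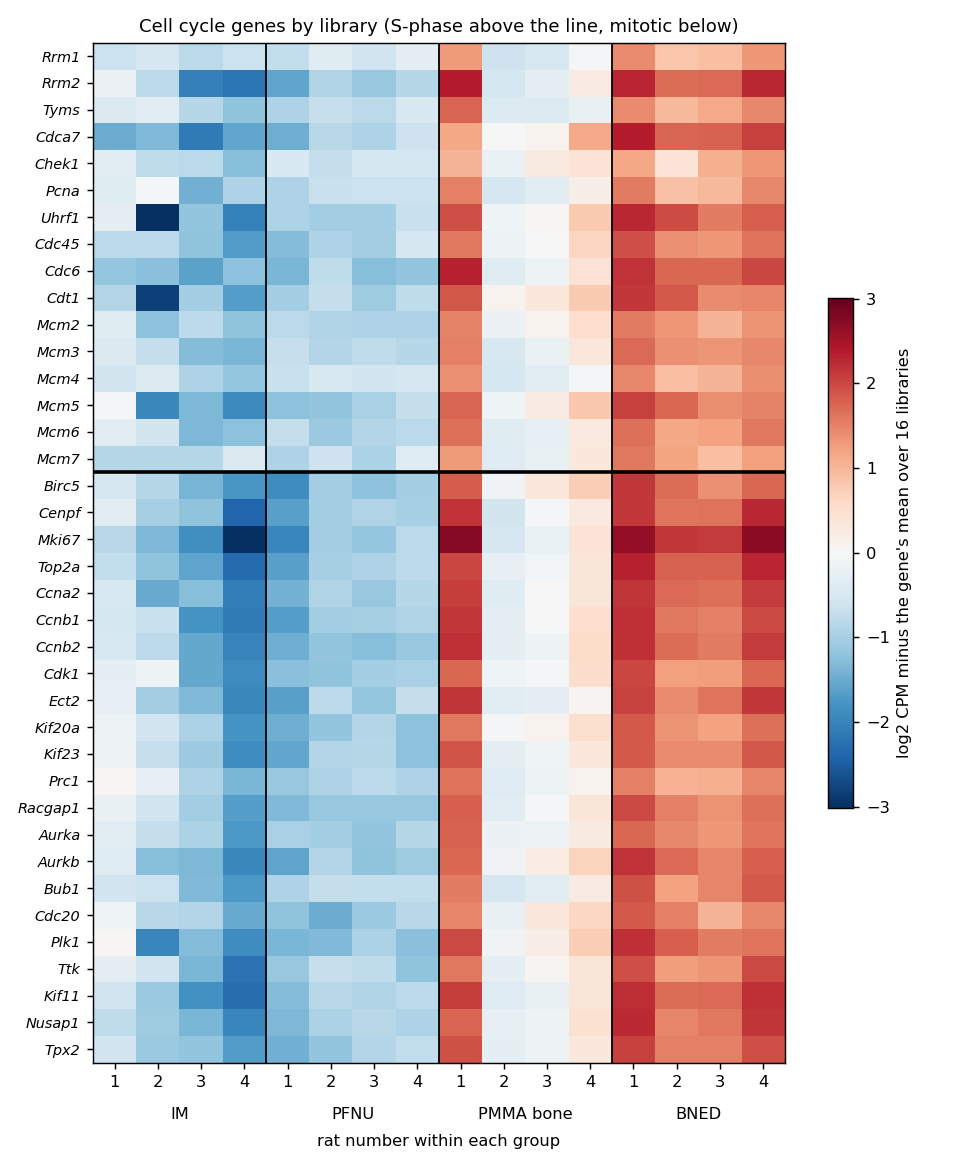
Level of each of the 38 genes (rows, 16 S-phase above the line and 22 mitotic below) in each of the 16 libraries (columns, rats 1 to 4 in each group), as log2 CPM minus the gene's own mean. The BNED libraries and the PMMA bone of rat 1 are red in nearly all rows, the PMMA bone of rats 2 to 4 is near white, and IM and PFNU are blue, faintly so for many genes in the IM of rat 1.

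**Figure D2:**
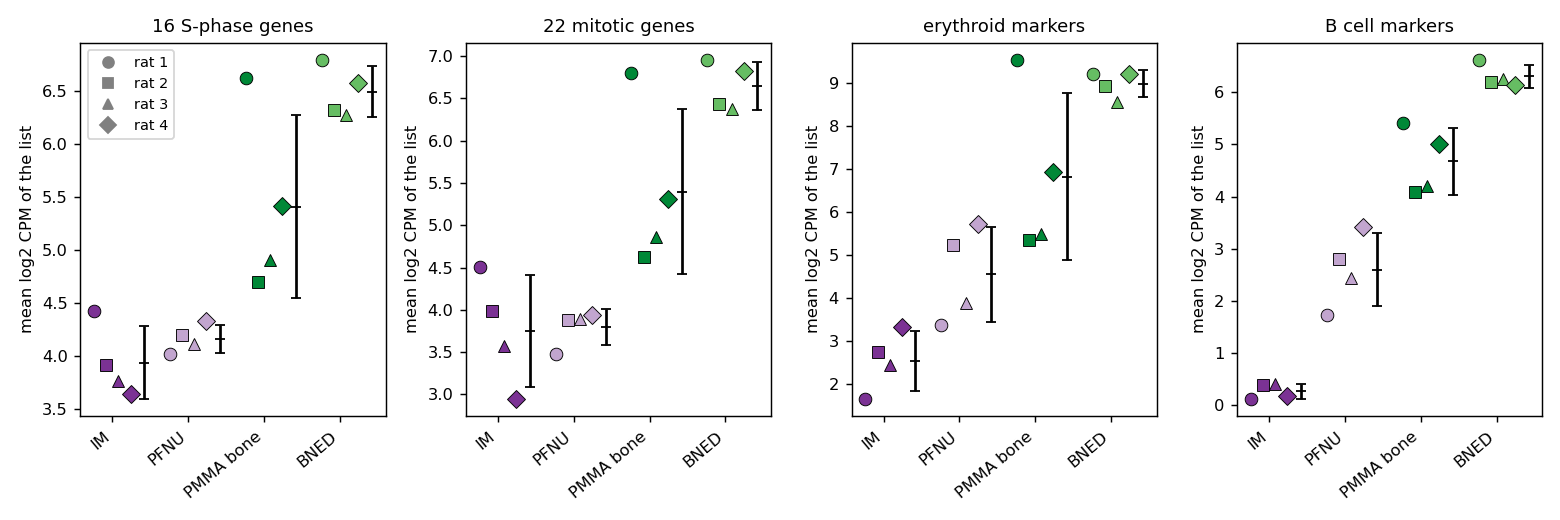
Mean log2 CPM of the S-phase, mitotic, erythroid and B cell genes in each library (points, shape by rat) with the group mean and SD (bars, n = 4); the vertical axes do not start at 0 and differ between panels. The PMMA bone of rat 1 (circle) is among the BNED libraries for the S-phase and mitotic genes, above them for the erythroid genes (9.55) and below them for the B cell genes (5.40).

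Among the proteins that license and unwind origins, Mcm2 and Mcm5, subunits of the replicative helicase, and Cdc6, which loads that helicase onto DNA, were highest in BNED, next in PMMA bone and low in both defect tissues. Mcm2 was at 158, 132, 109 and 137 CPM in BNED of rats 1 to 4, at 149, 47.0, 57.7 and 76.4 in PMMA bone, at 30.5, 28.3, 28.2 and 28.0 in PFNU and at 41.4, 22.6, 30.8 and 23.1 in IM. Mcm5 was at 93.8, 75.6, 59.9 and 63.6 CPM in BNED, 76.8, 20.7, 26.7 and 39.6 in PMMA bone, 9.58, 9.91, 11.5 and 13.7 in PFNU and 22.1, 5.87, 8.90 and 5.98 in IM. Cdc6 was at 54.7, 40.4, 40.2 and 49.0 CPM in BNED, 60.4, 9.39, 11.0 and 16.5 in PMMA bone, 4.65, 7.19, 4.98 and 5.30 in PFNU and 5.41, 5.07, 3.95 and 5.13 in IM. The PMMA bone of rat 1 was within the BNED range for Mcm2 and Mcm5 and above it for Cdc6, and for Mcm5 the IM of rat 1 was above the PMMA bone of rat 2.

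Rrm2, the regulated subunit of ribonucleotide reductase, was at 390, 253, 257 and 382 CPM in BNED, 412, 55.1, 65.7 and 93.8 in PMMA bone, 26.2, 42.2, 36.1 and 43.6 in PFNU and 70.3, 45.0, 18.9 and 17.4 in IM. Pcna, the clamp that holds DNA polymerase on its template, was at 305, 192, 203 and 285 CPM in BNED, 299, 73.1, 81.8 and 117 in PMMA bone, 54.9, 64.7, 66.7 and 66.6 in PFNU and 80.0, 99.2, 37.8 and 54.2 in IM. Uhrf1, which carries DNA methylation over to the new strand, was at 83.1, 67.7, 50.1 and 60.5 CPM in BNED, 67.0, 15.9, 17.8 and 30.0 in PMMA bone, 9.04, 8.35, 8.56 and 11.0 in PFNU and 14.0, 2.16, 7.55 and 4.24 in IM. The IM of rat 1 was above the lowest PMMA bone library for Rrm2, those of rats 1 and 2 were for Pcna, and no defect tissue library was for Uhrf1.

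Among mitotic genes, Cdk1 and its partner cyclin B1 (Ccnb1) form the kinase that starts mitosis. Cdk1 was at 134, 78.6, 79.4 and 110 CPM in BNED, 110, 30.2, 32.4 and 48.3 in PMMA bone, 13.8, 14.4, 16.3 and 16.8 in PFNU and 27.5, 29.7, 11.3 and 8.92 in IM. Ccnb1 was at 108, 70.2, 66.8 and 92.5 CPM in BNED, 102, 19.3, 23.3 and 33.0 in PMMA bone, 7.36, 11.4, 11.6 and 12.5 in PFNU and 16.1, 14.6, 6.78 and 5.43 in IM. For both genes all bone libraries were above all defect tissue libraries, and the membranes of rats 1 and 2 were above all PFNU libraries while those of rats 3 and 4 were below them.

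Plk1 and Aurkb encode kinases that act on the spindle, the kinetochores and the cleavage furrow. Plk1 was at 78.3, 59.5, 49.6 and 51.8 CPM in BNED, 68.2, 15.9, 19.6 and 28.5 in PMMA bone, 6.60, 6.84, 8.87 and 7.17 in PFNU and 17.4, 4.40, 6.95 and 4.68 in IM. Aurkb was at 96.7, 68.9, 59.3 and 73.6 CPM in BNED, 70.5, 19.8, 24.9 and 34.0 in PMMA bone, 7.01, 11.6, 9.24 and 10.2 in PFNU and 16.3, 8.79, 8.26 and 5.55 in IM. In both, the IM of rat 1 was the highest defect tissue library, and for Plk1 it was above the PMMA bone of rat 2.

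Mki67, which coats mitotic chromosomes and is the usual marker of cycling cells, was at 892, 626, 617 and 931 CPM in BNED, 961, 101, 125 and 192 in PMMA bone, 36.7, 69.0, 64.3 and 81.5 in PFNU and 80.5, 55.7, 39.6 and 17.7 in IM. Top2a was at 411, 283, 283 and 406 CPM in BNED, 331, 69.5, 77.5 and 105 in PMMA bone, 26.4, 41.1, 43.0 and 47.2 in PFNU and 49.5, 35.4, 27.1 and 16.5 in IM. No defect tissue library reached the lowest bone library for either gene. The PMMA bone of rat 1 was above all BNED libraries for Mki67 and within their range for Top2a.

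The members rose and fell together across libraries, though not in equal measure. Across the 16 libraries, which share rats and groups, Pearson's r between the log2 CPM of any pair of members had a median of 0.97 and a lowest value of 0.82. With each group's mean removed the median was 0.88 and the lowest value 0.30. To compare the classes, each gene was centred on its mean over the 16 libraries, and the S-phase mean was subtracted from the mitotic mean in each library. This log2 difference was 0.26, 0.21, 0.20 and 0.34 in BNED, 0.28, 0.03, 0.06 and 0.0027 in PMMA bone, -0.44, -0.22, -0.12 and -0.29 in PFNU and 0.19, 0.18, -0.09 and -0.60 in IM. The mitotic genes thus stood relatively higher than the S-phase genes in every BNED library and relatively lower in every PFNU library, and the membranes of different rats went both ways. The genes outside the 40 with the highest correlation with the mean log2 CPM of the members over 16 libraries were Aspm, Clspn, Cdca2, Nuf2, Kif22, Kif2c, Spag5, Cenpt, Sgol2 and Ncapd3. Their r lay between 0.997 for Aspm and 0.993 for Ncapd3, and between 0.96 and 0.99 with group means removed.

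The tissue of the empty defect was compared with the bone beside it. All 38 members were lower in PFNU than in BNED by edgeR's quasi-likelihood test (adjusted p under 0.05), against 15.2% of all tested genes called lower and 15.0% called higher. No PFNU library of any member reached its lowest BNED library, which held for 21.0% of all genes. The median log2 fold change was -2.28 for the S-phase genes and -2.88 for the mitotic genes, 4.86-fold and 7.37-fold lower, where the median of all genes was 0.04. By role, the medians were -1.97 for nucleotide supply (3 genes), -2.30 for the helicase and its loading (9), -2.39 for the clamp, chromatin and checkpoint genes (4), -2.62 for mitotic kinases and the spindle checkpoint (6) and -2.77 for cytokinesis (5). The spindle genes (3), the cyclins with Cdk1 (4) and the chromosome and kinetochore genes (4) lay at -2.90, -2.98 and -3.09.

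Mki67 fell by 3.61 on the log2 scale (SE 0.67, edgeR adjusted p = 0.00137), 12.2-fold, the largest fall of the 38. Among the S-phase genes Rrm2 fell by 3.11 (SE 0.62, edgeR adjusted p = 0.00204). The log2 fold change was -3.06 (SE 0.48) for Cdc6, -2.94 (SE 0.30) for Cdca7, -2.82 for Uhrf1 and -2.71 for Mcm5. The smallest fall was that of Chek1, the kinase of the replication checkpoint, with -1.58 (SE 0.27, edgeR adjusted p = 0.000747). Among the mitotic genes Ccnb2, a cyclin of the Cdk1 kinase, fell by 3.18 (SE 0.50, edgeR adjusted p = 0.000463). Top2a was at -3.13, Cenpf, which encodes a kinetochore protein, at -3.05 and Plk1 at -3.02. Prc1, which bundles microtubules of the central spindle, had the smallest mitotic fall with -2.24 (SE 0.40, edgeR adjusted p = 0.00114). These falls held in all 4 rats taken singly, where the median log2 ratio of the 38 members between the libraries of a rat was -3.30, -2.50, -2.40 and -2.70 in rats 1 to 4.

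Marrow markers moved in the same direction. Of 19 erythroid genes 18 were lower in PFNU than in BNED (median log2 fold change -4.53), as were all 19 B cell genes (-3.81) and 12 of 13 granulocyte genes (-4.28). Endothelial genes went the other way, with 7 of 8 higher, as did skeletal muscle genes, with 9 of 15 higher (median 2.92). Of 6 osteoclast genes 2 were lower. With the erythroid level of each library as a covariate, edgeR called none of the 38 (18 at an unadjusted p under 0.05, against 23.8% of all genes) and none of the 12857 genes (0.00%), and the medians were -1.06 for S-phase and -1.39 for mitotic genes. With the B cell level as the covariate the medians were 0.14 and 0.16, with none of the 38 and none of all genes called (0.00%), and 0 members at an unadjusted p under 0.05 against 5.86% of all genes. The erythroid level was 3.38 to 5.72 in PFNU and 8.56 to 9.23 in BNED. The slope of a covariate came from the spread within the groups, over all 16 libraries. Groups whose levels do not overlap are compared only by extending that slope, so in these fits the group and the marker level cannot be told apart. In bulk tissue, fewer cycling cells and less of these transcripts per cell cannot be told apart either.

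On the spacer side the members were again lower in the membrane than in the neighbouring bone. Whether the differences of the 2 sides are unequal is what the interaction described further on tests, and it called no member. Of the 38 members 34 were lower in IM than in PMMA bone by edgeR (13 of 16 S-phase and 21 of 22 mitotic), where 11.0% of all genes were called lower and 11.3% higher. Pcna, Rrm1, Tyms and Prc1 did not pass, at log2 fold changes of -0.90 to -1.19 and edgeR adjusted p of 0.0512 to 0.0617. The median log2 fold change was -1.45 for S-phase genes and -1.89 for mitotic genes, 2.73-fold and 3.71-fold lower, against 0.03 for all genes. For 22 of 38 members every IM library was below every PMMA bone library. Such separation in this direction held for 11.7% of all genes.

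Mki67 fell by 2.83 (SE 0.65, edgeR adjusted p = 0.00806), 7.12-fold. Top2a was at -2.18 (SE 0.46, edgeR adjusted p = 0.00535) and Kif11, the motor that pushes spindle poles apart, at -2.15 (SE 0.49). Ccna2, the cyclin of S and G2 phase, was at -2.09 and Ccnb1 at -2.05. Of the S-phase genes Cdt1, the other loading factor of the helicase, fell by 2.37 (SE 0.41, edgeR adjusted p = 0.00199). Cdc6 and Cdca7 were both at -2.31, Uhrf1 at -2.22 and Rrm2 at -2.05. The smallest called fall was that of Mcm4, a helicase subunit, with -1.08 (edgeR adjusted p = 0.0331). Among the called mitotic genes it was that of Kif20a, a motor of the cleavage furrow, with -1.44 (edgeR adjusted p = 0.0126).

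Single libraries weighed on this comparison. Without the PMMA bone of rat 1, 24 of 38 were called lower (background 7.63%), with medians of -0.94 and -1.05. Mki67 was then at -1.52, Top2a at -1.39, Kif11 at -1.27, Ccna2 at -1.25 and Ccnb1 at -1.23. Cdca7 was at -2.12, Cdt1 at -1.87, Uhrf1 at -1.60, Cdc6 at -1.33 and Kif20a at -0.95, all still called. Rrm2 (-0.92, edgeR adjusted p = 0.135) and Mcm4 (-0.46, edgeR adjusted p = 0.125) were no longer called. Rrm2 and Mcm4 also lost the call without the IM of rat 3 (edgeR adjusted p = 0.0572 and 0.0697) or of rat 4 (0.0721 and 0.103). When the 8 libraries of these 2 groups were fitted alone, 10 were called lower (background 3.96%). Within rats the median log2 ratio of the members was -2.13, -0.55, -1.20 and -2.28. Erythroid genes were lower in 17 of 19 cases (median -5.04) and B cell genes in 18 of 19 (median -5.01), as were 11 of 13 granulocyte and 5 of 6 osteoclast genes. Skeletal muscle genes were higher in 12 of 15 cases (median 5.34), at 0.179 to 1.11% of the counts in PMMA bone. With the erythroid level as a covariate edgeR called none of the 38, where it called 3.34% of all genes lower and 4.71% higher, and the medians were 0.01 and -0.02 (2 members at an unadjusted p under 0.05, 29.2% of all genes). With the B cell level it called no member and no gene at all (0.00%), with medians of 1.54 and 1.93 (3 members at an unadjusted p under 0.05, 8.28% of all genes). The erythroid level was 1.65 to 3.33 in IM and 5.37 to 9.55 in PMMA bone, and the B cell level 0.11 to 0.40 and 4.08 to 5.40. Without overlap, the group and the marker level cannot be told apart in these fits, although the erythroid fit did call genes. The PMMA bone of rat 1 stood apart in the erythroid level (9.55, with rats 2 to 4 at 5.37 to 6.93). No covariate fit without that library was made. The part of marrow content in the difference was not tested.

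**Figure D3:**
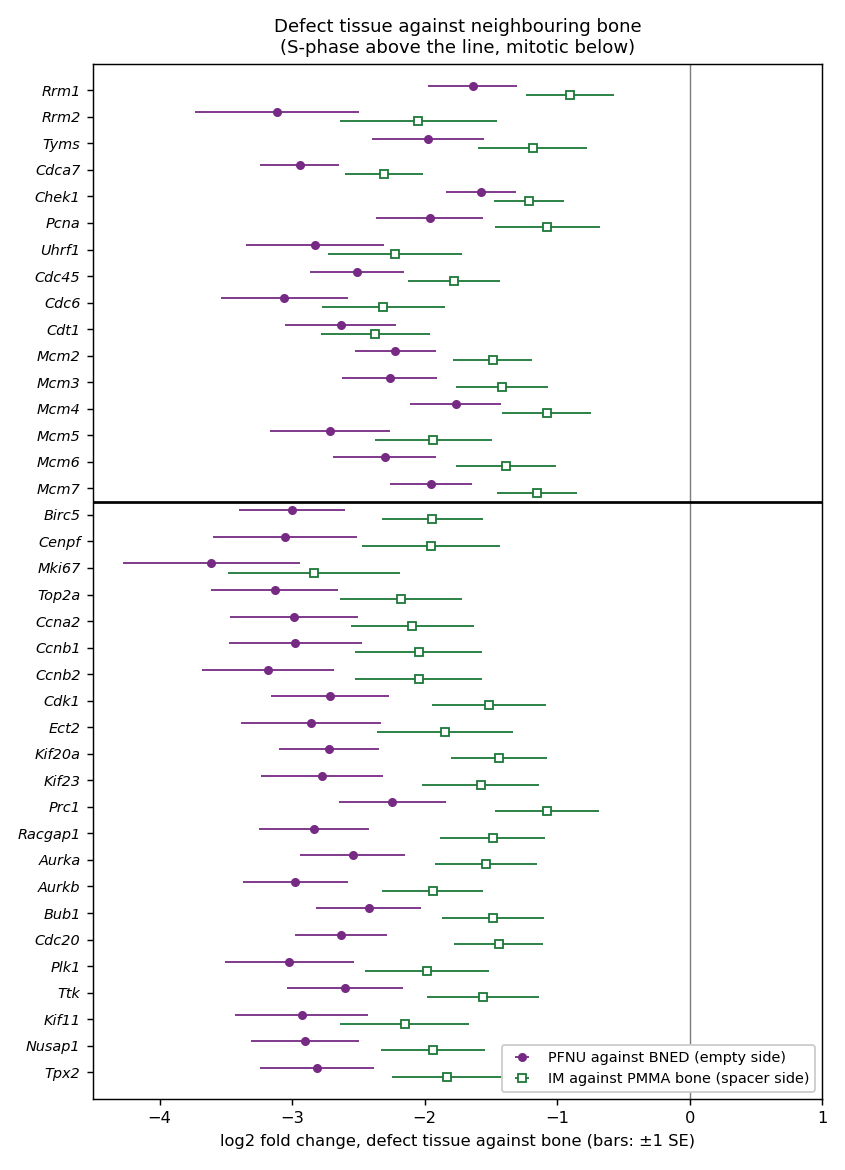
Log2 fold change of each gene (rows) between defect tissue and neighbouring bone on the empty side (filled circles) and on the spacer side (open squares), with bars of 1 SE. All points lie below 0, those of the empty side from -1.58 to -3.61 and those of the spacer side from -0.90 to -2.83.

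The bone beside the spacer was compared with the bone beside the empty defect. All 38 members had lower mean levels in PMMA bone, but edgeR called only Cdca7, where 1.40% of all genes were called lower and 3.51% higher. At an unadjusted p under 0.05 there were 22 of 38, Cdca7 included, against 24.3% of all genes. The median log2 fold change was -0.86 for S-phase genes and -0.97 for mitotic genes, against -0.01 for all genes. Cdca7 was at 53.7, 24.1, 25.9 and 53.0 CPM in PMMA bone of rats 1 to 4 and at 123, 81.4, 81.7 and 99.5 in BNED. It was the 1 member of 38 whose groups did not overlap, where 7.05% of all genes lay wholly below, and had a log2 fold change of -1.30 (SE 0.28, edgeR adjusted p = 0.0263), 2.46-fold. In defect tissue it was at 8.70, 13.3, 12.6 and 15.5 CPM in PFNU and 8.50, 9.56, 5.47 and 8.11 in IM.

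The uncalled members had log2 fold changes of -0.57 (Chek1) to -1.25 (Top2a, SE 0.45, edgeR adjusted p = 0.112). Mki67 was at -1.15 (SE 0.61, edgeR adjusted p = 0.261), Rrm2 at -1.03, Mcm5 at -0.84 and Pcna at -0.79. For 36 of these 37 the groups overlapped through the library of rat 1 alone, and for Chek1 that of rat 4 overlapped too. The PMMA bone of rat 1 was the highest of its group for 38 of 38 members. It lay within the BNED range for 29, above it for 8 and below it for 1. The PMMA bone of rats 2 to 4 lay below every BNED library for 37 of 38. That count sets aside the highest library of the group, and the share of all genes under the same condition was not computed. Rat 2 had the lowest PMMA bone library for all 38.

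Without the PMMA bone of rat 1, edgeR called all 38 lower, where 10.5% of all genes were called lower. That library was the highest of its group for all 38, so leaving it out lowers each PMMA bone mean. It was singled out after its values were seen, by an erythroid level with an r of 0.99 to both class levels over the bone libraries. The values of this fit are therefore a description. The medians were then -1.49 for S-phase and -1.70 for mitotic genes. Mki67 was at -2.46 (SE 0.45, edgeR adjusted p = 0.00289), 5.51-fold lower, Rrm2 at -2.16, Top2a at -2.04, Cdc6 at -1.90 (SE 0.23, edgeR adjusted p = 0.000554) and Chek1 at -0.83. Limma-voom with quality weights, which gives less weight to more variable libraries, called all 38 with every library kept (background 23.9%), and DESeq2 called 6 (background 4.53%). The call of Cdca7 was lost without the PMMA bone of rat 2, 3 or 4 or the BNED of rat 1 or 3 (edgeR adjusted p = 0.106, 0.096, 0.052, 0.111 and 0.0646). In each of those fits edgeR called no gene at all. The log2 fold change of Cdca7 stayed between -1.12 and -1.49 over all fits that left out 1 library.

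Within rats, the median log2 ratio of the 38 members between PMMA bone and BNED was -0.15 in rat 1, -1.74 in rat 2, -1.47 in rat 3 and -1.35 in rat 4. The erythroid level differed by 0.33, -3.58, -3.07 and -2.30 in the same rats and the B cell level by -1.22, -2.12, -2.06 and -1.13. Rat 1, the animal whose erythroid level was not lower in PMMA bone, had the smallest difference in the members (29 of 38 lower and 9 higher, against 38 of 38 lower in each other rat), while its B cell level was lower. Over the 4 rats, none of 19 erythroid genes and 12 of 19 B cell genes were called lower by edgeR. These counts were 18 and 15 without the PMMA bone of rat 1. With the erythroid level as a covariate edgeR called no member and no gene at all (0.00%), with 1 member and 7.01% of all genes at an unadjusted p under 0.05, and the medians were -0.38 and -0.51. With the B cell level as the covariate it again called no gene (0.00%), no member and 2.15% of all genes had an unadjusted p under 0.05, and the medians were 0.09 and 0.11. The B cell level was 4.08 to 5.40 in PMMA bone and 6.14 to 6.63 in BNED. In the fit with that level, group and marker level cannot be told apart. The erythroid levels of the groups overlapped only through the PMMA bone of rat 1. The part of marrow content in the lower levels was not tested.

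**Figure D4:**
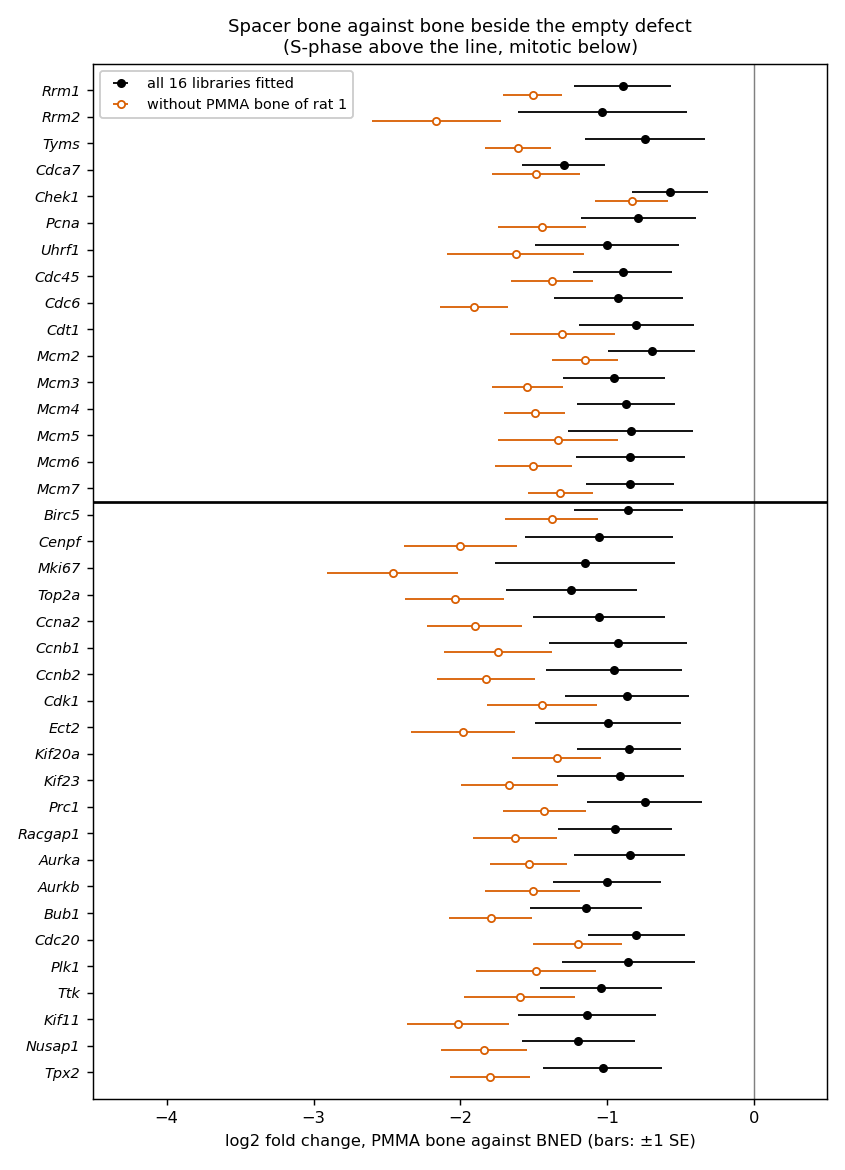
Log2 fold change of each gene (rows) between PMMA bone and BNED with all libraries (filled) and without the PMMA bone of rat 1 (open), with bars of 1 SE. Every filled point is nearer to 0 than its open counterpart, and all points are below 0.

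**Figure D5:**
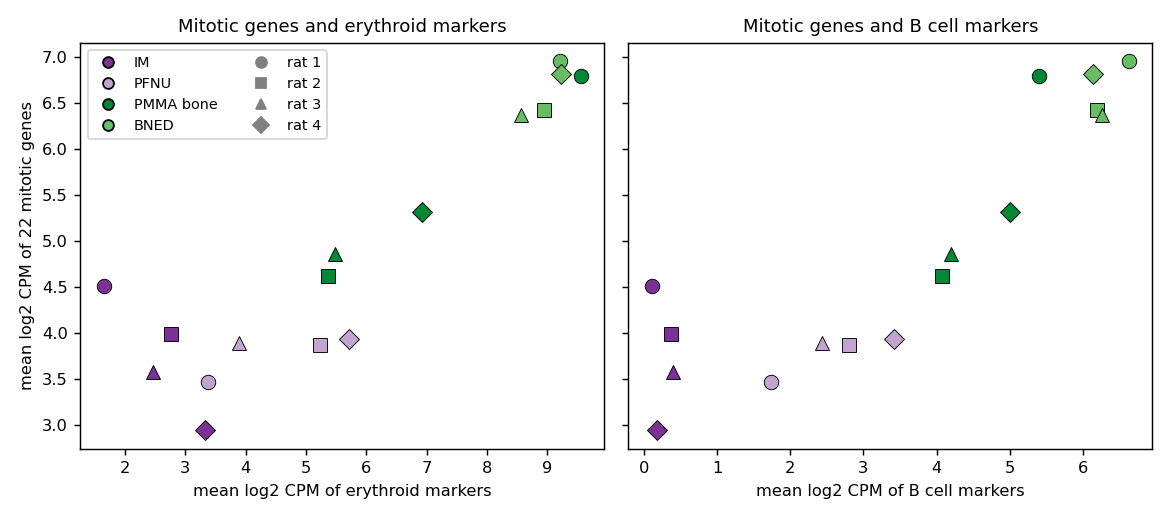
Mean log2 CPM of the 22 mitotic genes (vertical) against that of the erythroid genes (left) and the B cell genes (right) in each library, coloured by group with the shape giving the rat. Pearson's r of the mitotic level with the erythroid and B cell levels is 0.90 and 0.88 over the 16 libraries, which share rats and groups. It is 0.99 and 0.91 in the bone libraries and -0.13 and 0.13 in the defect tissue libraries. Among the membranes alone, rat 1 has the highest mitotic level (4.51) and the lowest erythroid level (1.65), and rat 4 the lowest mitotic level (2.94) and the highest erythroid level (3.33).

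In the tissue of the defect itself no member differed between spacer and empty side by edgeR. Cdca7 alone of the 38 had an unadjusted p under 0.05 (15.5% of all genes did), DESeq2 and limma-voom called none, and 0.863% of all genes were called in either direction. The libraries of the groups overlapped for all 38 members, where 3.96% of all genes lay wholly above and 3.31% wholly below. The median log2 fold change of IM against PFNU was -0.13 for S-phase and 0.04 for mitotic genes, where that of all genes was 0.01. The mitotic median ran from -0.27 without the IM of rat 1 to 0.31 without the IM of rat 4, and was -0.12 with the rat as a block and -0.15 with limma-voom, so its sign was not stable. With the erythroid level as a covariate the medians were 0.51 and 0.85, and 14 of 38 members had an unadjusted p under 0.05 (10.7% of all genes). With the B cell level they were 1.37 and 1.90, with all 38 above 0 and 27 at an unadjusted p under 0.05 (5.55% of all genes). No member was called in either fit, and 0.124% and 0.00% of all genes were. The erythroid level was 1.65 to 3.33 in IM and 3.38 to 5.72 in PFNU. The B cell level was 0.11 to 0.40 in IM and 1.74 to 3.42 in PFNU. Neither level overlapped between the groups, so in these fits the group and the marker level cannot be told apart. In the fit without a covariate, the lowest log2 fold change was that of Cdca7, -0.66 (95% interval -1.26 to -0.06, edgeR adjusted p = 0.275). The highest there was that of Kif20a, 0.43 (-0.33 to 1.18). Mki67 was at -0.38 with an interval of -1.67 to 0.91, and Pcna at 0.10 with -0.73 to 0.93. The interval allows a change of more than 1 on the log2 scale in the lower direction for Mki67.

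The membranes differed from rat to rat, with a mitotic mean log2 CPM of 3.75 ± 0.66 (SD, n = 4) beside 3.79 ± 0.22 in PFNU. The IM of rat 1 was the highest of its group for 30 of 38 members and that of rat 4 the lowest for 27, while in PFNU rat 1 was the lowest for 28 and rat 4 the highest for 20. The median log2 ratio of IM to PFNU within a rat was 0.87 in rat 1, with 37 of 38 members higher in the membrane, 0.06 in rat 2, -0.30 in rat 3 and -0.86 in rat 4, with all 38 lower. B cell genes were lower in the membrane of all 4 rats (log2 ratios of -1.63, -2.43, -2.04 and -3.25), and so were erythroid genes (-1.73, -2.47, -1.44 and -2.39). By edgeR 14 of 19 B cell genes were called lower in IM than in PFNU and none of 19 erythroid genes (11 at an unadjusted p under 0.05). The share of skeletal muscle counts in IM was 2.24, 3.87, 16.1 and 20.2% in rats 1 to 4. The part of muscle in the low values of rats 3 and 4 was not tested.

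The interaction asks whether the spacer had a different effect in the defect than in the bone. No member and no gene was called by edgeR (0.00%), and 3 of 38 members had an unadjusted p under 0.05, against 8.94% of all genes. DESeq2 and limma-voom called no member. All 38 estimates were above 0, with medians of 0.74 for S-phase and 1.04 for mitotic genes against 0.01 for all genes. The spacer effect was negative in the bone for all 38. In the defect it was less negative for 19 of them and above 0 for the other 19. They ran from 0.26 for Cdt1 to 1.35 for Racgap1, a regulator of cytokinesis (edgeR adjusted p = 0.502). Kif20a was at 1.28 and Cdc20, which activates the anaphase-promoting complex, at 1.19 (edgeR adjusted p = 0.491 for both). These ends were chosen after their values were seen. Without the PMMA bone of rat 1, edgeR called 16 of 38 members (7 S-phase and 9 mitotic) with a positive interaction, where 1.08% of all genes were called in that direction. That library was the highest of its group for all 38, so leaving it out works toward higher estimates. The medians were then 1.29 and 1.74, with Racgap1 at 2.03.

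Other genes of the same pathways, from lists that leave out the 38, moved with the members. Between PFNU and BNED all 35 further replication genes were lower (median log2 fold change -2.01), as were 33 of 34 further mitosis genes (-2.71), all but Cit. Of all genes 15.2% were called lower there. Orc1, a subunit of the origin recognition complex, fell by 3.13 (SE 0.54, edgeR adjusted p = 0.000859). Exo1, a repair exonuclease, was at -3.09 and Asf1b, a histone chaperone, at -3.07. Of the mitosis genes Ube2c, which works with the anaphase-promoting complex, fell by 3.18 (SE 0.52, edgeR adjusted p = 0.000588), Cdca3 was at -3.09 and the spindle pole gene Aspm at -3.08. Between IM and PMMA bone 23 of 35 replication genes and 32 of 34 mitosis genes were lower (11.0% of all genes were). Among the former, Orc1 was at -3.01, Exo1 at -2.58 and Tk1, which salvages thymidine, at -2.16. Among the latter, Fbxo5, an inhibitor of the anaphase-promoting complex, was at -2.40, Sgol2, which protects cohesion at centromeres, at -2.16 and Ube2c at -2.06. These counts were 13 and 18 without the PMMA bone of rat 1, where 7.63% of all genes were called lower. Orc1 was then at -1.97, Exo1 at -1.96, Tk1 at -1.49, Fbxo5 at -1.48, Sgol2 at -1.29 and Ube2c at -1.21, all still called. Between IM and PFNU none was called by edgeR (1 of 35 and 0 of 34 at an unadjusted p under 0.05, against 15.5% of all genes).

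Genes that control entry into the cycle were called in both directions. Between PFNU and BNED 23 of 35 regulators were lower (65.7%, against 15.2% of all genes) and 6 higher (17.1%, near the 15.0% of all genes). Mybl2, the B-Myb factor, fell by 3.50 (SE 0.59, edgeR adjusted p = 0.000722), the phosphatase Cdc25b was at -3.44 and cyclin E1 (Ccne1) at -3.24. Foxm1 was at -2.12 and E2f1 at -1.37, both called. The 6 that rose were Ccng1, Cdkn2a, Cdkn2b, Cdkn1a, Cdkn1c and Ccnd1. Of these, 4 encode inhibitors of cyclin-dependent kinases, cyclin G1 is a target of p53, and cyclin D1 drives G1. Other inhibitors on the list went the other way. Cdkn1b was at 57.8, 82.1, 74.7 and 80.3 CPM in PFNU against 158, 136, 147 and 183 in BNED. Cdkn2c was at 7.66, 11.6, 12.1 and 11.5 CPM against 56.5, 41.4, 36.5 and 47.3. Cdkn2b rose by 1.84 (SE 0.21, edgeR adjusted p = 9.55e-05), from 8.18, 7.77, 7.36 and 8.16 CPM in BNED to 26.1, 29.8, 28.0 and 29.0 in PFNU. Cdkn2a rose by 1.89 (SE 0.33, edgeR adjusted p = 0.000952), Cdkn1a by 1.64 (SE 0.44, edgeR adjusted p = 0.0118) and Ccnd1 by 1.15 (SE 0.29, edgeR adjusted p = 0.00898). Ccng1 rose by 2.11, to 1023, 2263, 881 and 2137 CPM in PFNU from 250 to 537 in BNED. Its levels in the membranes of rats 1 to 4, 344, 532, 1490 and 2763 CPM, stood in the same order as their share of muscle counts given above, and the part of muscle in them was not tested.

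Between IM and PMMA bone 14 of 35 regulators were lower (against 11.0% of all genes) and 4 higher (11.4%, close to the 11.3% of all genes). Cdc25b fell by 2.88 (SE 0.59, edgeR adjusted p = 0.00447), and the called Ccne1, Mybl2 and Foxm1 were at -2.78, -2.64 and -1.47. Ccng1 rose by 2.18 (edgeR adjusted p = 0.0131), Cdkn2a by 1.90 and Cdkn2b by 0.93. Cdkn2a, which encodes p16 and ARF, was at 18.3, 17.6, 4.91 and 11.3 CPM in IM and 2.66, 3.85, 3.92 and 3.51 in PMMA bone, with no overlap. Of all genes, 7.75% lay wholly above in IM. The call of Ccng1 was lost without the IM of rat 4 (edgeR adjusted p = 0.051) and that of Foxm1 without the PMMA bone of rat 1 (0.0525). E2f1 was at -0.68 and missed the threshold (edgeR adjusted p = 0.0517), and passed it with the rat as a block (0.0233). Ccnd1 (-0.09) and Cdkn1a (0.48) were not called. Without that PMMA bone library, 7 regulators were lower and 4 higher (7.63% and 6.58% of all genes), with Mybl2 at -1.84, Cdc25b at -1.72 and Ccne1 at -1.66.

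Between PMMA bone and BNED, where 1 member was called, 5 of the 104 other genes of these lists were called (4.81%), a share no larger than the 4.91% of all genes called in either direction. Their values are given as a description. Ccnd1 was at 64.0, 107, 119 and 97.1 CPM in PMMA bone and 28.9, 39.5, 52.9 and 59.6 in BNED, a rise of 1.10 (SE 0.29, edgeR adjusted p = 0.0431). Every PMMA bone library, that of rat 1 included, lay above all BNED libraries for this gene. The same held for Cdkn2b, which was at 10.8, 15.8, 16.2 and 11.9 CPM against 7.36 to 8.18 and rose by 0.80 (edgeR adjusted p = 0.0375). Such separation in this direction held for 12.0% of all genes. The replication factor subunit Rfc5 was called at -0.77 (edgeR adjusted p = 0.0369), Ccng2, a cyclin linked to arrest, at -0.82 (0.0313) and cyclin D3 (Ccnd3) at -0.65 (0.0477). These calls were near the threshold: leaving out 1 library ended that of Ccng2 in 5 of 8 fits, that of Ccnd1 in 6 and those of Rfc5, Cdkn2b and Ccnd3 in 7, with edgeR adjusted p up to 0.176. Without the PMMA bone of rat 2, 3 or 4 or the BNED of rat 1 or 3, edgeR called no gene at all. With the rat as a block Ccnd1, Cdkn2b and Ccnd3 were not called (edgeR adjusted p = 0.0567, 0.0592 and 0.0509). Foxm1 (-0.80), E2f1 (-0.60) and Cdkn1a (0.39) were not called. E2f1 was called without the PMMA bone of rat 1 (-0.84, edgeR adjusted p = 0.0174), while Foxm1 (-1.10, 0.0628) and Cdkn1a (0.56) were not. Without the PMMA bone of rat 1, 33 of 35 replication genes and 31 of 34 mitosis genes were lower, and 20 regulators were lower and 3 higher. In that fit 10.5% of all genes were called lower and 9.37% higher. Between IM and PFNU no regulator was called by edgeR (5 of 35 at an unadjusted p under 0.05, against 15.5% of all genes), with Ccnd1 at -0.14, Cdkn1a at -0.77, E2f1 at 0.09 and Foxm1 at -0.16.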

How the data were processed

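Poly-A RNA of 16 tissues (4 rats, 4 groups) was sequenced as stranded TruSeq libraries in paired ends, per the labels' protocols. The deposited table holds whole-number read counts per gene symbol, not normalized. Build rn5, TopHat2 2.0.13 with Bowtie2 2.2.1, FastQC 0.11.3 and DESeq2 are listed, per the submitters' processing notes. The counting program, its strand setting and the annotation are not given in the sources used here, so reads of overlapping or antisense genes may be shared. Totals were 40472228 to 76815879 counts.

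Genes were filtered with filterByExpr (12857 of 14476 kept), scaled by TMM and fitted over all 16 libraries with edgeR 4.0.16 (quasi-likelihood test, two-sided) in R 4.3.3. P-values were Benjamini-Hochberg adjusted over all genes tested, with a threshold of 0.05. Log2 CPM used a prior count of 2. The script was tested on simulated data. DESeq2 1.42.0, limma 3.58.1, other scalings, filters, covariates and left-out libraries were alternatives. Libraries of a group differed far beyond sampling noise (lowest chi-square per degree of freedom 80.6). The 4 libraries of a number come from 1 rat per the labels, so the numbers pair them. The median correlation of same-rat deviations was -0.01, -0.03, 0.16 and 0.06 in rats 1 to 4. The fit with the rat as a block was an alternative.

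The members and lists were chosen with earlier results of these data known. Levels per library were given for a panel of 12 members whatever their result. Fold changes of the panel were given for only some of them in each comparison. Other named members were up to 5 called ones of each class with the largest change and the one of each class with the smallest. Also named were up to 3 called genes of each further list in each direction, and Ccnd1, Cdkn1a, E2f1 and Foxm1. Some genes beyond this rule, among them Rrm1, Tyms, Cit, Cdkn1b, Cdkn1c, Cdkn2c, Cdc20 and Racgap1, were named after their values were seen. Marker lists described composition. Promoter windows are RefSeq's, of GRCr8. No position in rn5 is given.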

Additional observations from a re-analysis of the deposited data

Results flagged for a closer look

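In 5 genes the PMMA bone of rat 1 lay far above the other 3 libraries of its group, with a gap to the nearest that took up most of the group's range. Mki67 was at 961 CPM there (others 101 to 192), Rrm2 at 412 (55.1 to 93.8), Top2a at 331 (69.5 to 105), Ccnb1 at 102 (19.3 to 33.0) and Cdc6 at 60.4 (9.39 to 16.5).

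The PFNU of rat 1 stood apart in 3 measures. Pcna was at 54.9 CPM (others 64.7 to 66.7), Mcm2 at 30.5 (28.0 to 28.3) and the mean log2 CPM of the mitotic genes at 3.47 (3.88 to 3.93). For Mcm2 it was the highest of its group and for the other measures the lowest. In all, 68 groups of 4 libraries were examined, and chance flags about 1 in 20 groups. The genes move together, so these are not separate events.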

How the results depend on the processing

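The 38 falls between PFNU and BNED were called in all fits but those with a marker covariate (0 with the erythroid and 0 with the B cell level). IM against PMMA bone gave 34 called, 10 with only the 8 libraries compared, 24 to 38 when 1 library was left out, and 0 with either covariate. PMMA bone against BNED gave 1 called, 6 with DESeq2, 38 with limma-voom, 0 with either covariate, and 0 to 38 when 1 library was left out. Every fit of this pair that called 0 members called no gene at all. The interaction gave 0, and 0 to 16 when 1 library was left out. IM against PFNU gave 0 in every fit, while its S-phase median turned sign with either covariate and its mitotic median with the block, limma-voom and some left-out libraries. With the rat as a block, the pairing of libraries left the counts at 0 for IM against PFNU, 1, 34 and 38 for the other pairs and 0 for the interaction. Of 71 results of named genes that were followed through the fits, 4 changed their call under the block, all given above. Some genes named above, Uhrf1 and Plk1 among them, were not in this set, which also underlies the single-gene values below.

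Directions that turned were mostly those under a covariate that nearly separates the groups. For IM against PFNU the erythroid covariate put Mki67 at 0.92 and Foxm1 at 0.013, the B cell covariate put Mki67 at 2.77, Cdca7 at 0.97 and Foxm1 at 0.46, and limma-voom put Pcna at -0.37. Leaving out 1 library gave -0.070 to 0.19 for E2f1, -0.14 to 0.30 for Pcna, -0.28 to 0.041 for Ccnd1 and -0.71 to 0.11 for Foxm1. For PMMA bone against BNED the B cell covariate put Mki67 at 0.55, Top2a at 0.041, Pcna at 0.23, Mcm5 at 0.074 and Rrm2 at 0.39.

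For IM against PMMA bone the erythroid covariate put Mki67 at 0.26, Pcna at 0.66, Rrm2 at 0.54, Cdc6 at 0.18, Mcm4 at 0.48, Cdc25b at 0.12 and Ccne1 at 0.18. The B cell covariate put Mki67 at 3.56, Top2a at 2.14, Pcna at 2.28, Mcm5 at 1.01, Rrm2 at 3.13, Cdt1 at 0.51, Cdc6 at 2.21, Cdca7 at 0.82, Mcm4 at 1.90, Kif11 at 2.13 and Kif20a at 1.20. It put Orc1 at 1.93, Exo1 at 1.55, Fbxo5 at 1.86, Sgol2 at 1.51, Cdc25b at 2.92, Ccne1 at 3.68 and Cdkn1a at -0.46. Leaving out 1 library gave -0.24 to 0.071 for Ccnd1. For PFNU against BNED the B cell covariate put Mki67 at 1.34, Top2a at 0.30, Pcna at 0.76, Rrm2 at 0.93, Cdc6 at 0.55, Ccnb2 at 0.13, Prc1 at 0.24, Orc1 at 0.75, Exo1 at 0.15, Ube2c at 0.84, Cdca3 at 0.59, Cdc25b at 1.06 and Ccnd1 at -1.26. The cause of these changes was not tested.

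With 4 rats, changes between IM and PFNU smaller than the intervals given above were not detectable. Calls at the threshold in PMMA bone against BNED were lost when single libraries were left out. Several of those fits called no gene at all.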
